A study of Homo sapiens with 6 samples.

Results

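The genes described here are 10 that carry the control of body iron: the hormone hepcidin (HAMP), the iron exporter ferroportin (SLC40A1), the ferroxidase ceruloplasmin (CP), the carrier transferrin (TF), the transferrin receptors TFRC and TFR2, the receptor partner HFE, the importer DMT1 (SLC11A2) and the ferritin chains FTH1 and FTL. They were taken by their symbols in the array annotation, but the set was chosen by the differences between these groups, with HAMP higher and SLC40A1 and CP lower already known, so their values are a description and carry no test. Of the 47323 probes on the array, 13 were annotated to 9 of these 10 genes, and FTH1 is not analysed here. The array measured HepG2 cells, an established human line of liver tumour origin in which much of the hepatocyte programme is active. One group of 3 samples was labelled control and the other group of 3 samples was labelled PBLD overexpressed, with 1 array per sample. PBLD is a protein with a domain like that of phenazine biosynthesis enzymes. The labels do not say whether the controls carried an empty vector, how PBLD was delivered, whether the overexpressing cells were 1 clone, or whether each sample came from a culture of its own. The spread between samples may therefore be technical.

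The liver sets the iron content of the body through hepcidin, a small peptide hormone that binds ferroportin and causes it to be taken into the cell and degraded, so that less iron leaves cells. Hepatocytes raise HAMP transcription when bone morphogenetic proteins act through SMAD factors, a route that HFE, hemojuvelin and TFR2 assist, and when interleukin-6 acts through STAT3. Iron that leaves a cell is oxidised by ceruloplasmin and carried by transferrin, enters other cells through TFRC, crosses the endosomal membrane through DMT1 and is stored in ferritin.

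The promoter bases of HAMP, SLC40A1 and TFRC are shown because HAMP and SLC40A1 differed most between the groups, in opposite directions, and because TFRC is an uptake gene with a textbook link to hypoxia. Each line gives the 250 bases before the RefSeq start on the build GRCh38.p14, 5′ to 3′ on the strand of the gene, and capitals mark matches to the motifs searched.
HAMP (chr19:35282278-35282527, plus strand): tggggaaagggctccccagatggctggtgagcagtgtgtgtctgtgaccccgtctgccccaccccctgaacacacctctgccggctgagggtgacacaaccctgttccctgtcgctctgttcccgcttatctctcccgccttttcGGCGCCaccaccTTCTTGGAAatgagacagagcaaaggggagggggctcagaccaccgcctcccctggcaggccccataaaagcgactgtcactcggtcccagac
SLC40A1 (chr2:189580787-189581036, minus strand): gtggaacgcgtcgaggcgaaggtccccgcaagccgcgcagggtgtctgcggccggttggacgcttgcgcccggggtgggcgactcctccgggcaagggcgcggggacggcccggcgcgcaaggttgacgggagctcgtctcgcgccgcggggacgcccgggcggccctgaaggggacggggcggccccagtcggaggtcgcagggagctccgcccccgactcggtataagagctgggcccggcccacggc
TFRC (chr3:196082091-196082340, minus strand): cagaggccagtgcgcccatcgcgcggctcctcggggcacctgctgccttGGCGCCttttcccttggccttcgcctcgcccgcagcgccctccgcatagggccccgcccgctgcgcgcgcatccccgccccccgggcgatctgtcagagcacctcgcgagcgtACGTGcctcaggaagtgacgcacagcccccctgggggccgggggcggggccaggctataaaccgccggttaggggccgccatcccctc
The motifs, searched on both strands, were GGCGCC for the BMP response element, TTCNNNGAA for a STAT3 site, CACGTG for an E-box, ACGTG for the core of a hypoxia response element (which every E-box match also holds), TGACNNNGC for an antioxidant response element and TGANTCA for an AP-1 site. The HAMP window held GGCGCC at bases -105 to -100 and TTCTTGGAA at bases -93 to -85, counted from the base before the start as -1. Of 35116 windows of the same length, 16.4% held GGCGCC and 6.57% held TTCNNNGAA. The TFRC window held GGCGCC at -201 to -196 and ACGTG at -88 to -84, and 18.5% of all windows held ACGTG. The SLC40A1 window held none of the 6 motifs, which says only that these letters are not in it. Windows were found for 7 of the 10 genes. Among those not shown, the TF windows also held GGCGCC, the HFE and FTL windows held ACGTG on either strand, and an SLC11A2 window held TGANTCA. A match is a description of letters and not a site of binding.

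PBLD itself was read first, as a check of the labels. Its brightest probe, ILMN_1789653, read 8.002, 8.07 and 8.18 on the control arrays and 12.62, 12.84 and 12.72 on the PBLD arrays, on the deposited log2 scale. Only 1 of the 3 control arrays was above background there, and 0 of 3 on a second probe, ILMN_2304404, so the folds are lower bounds, with each control value raised to the limit of its array where it lay below. PBLD was at least 24.6-fold higher on the first probe (limma adjusted p = 5.29e-16) and at least 18.1-fold higher on the second. The other two PBLD probes, ILMN_1699684 and ILMN_1760748, were above background on 0 and 1 of the 6 arrays. A probe counted as above background where it exceeded the 95th percentile of 569 probes of genes silent in liver cells, those of smell and taste receptors and keratin-associated proteins, a limit between 8.05 and 8.08 on each array. Every array had a median of 8, and Pearson's r across probes was at least 0.9951 within groups and 0.9896 to 0.9918 between them.

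HAMP, the hormone, was about doubled in the PBLD overexpressed cells. Its probe ILMN_1729188 read 11.16, 11.35 and 10.91 on the 3 control arrays and 12.09, 12.32 and 12.02 on the 3 PBLD arrays. Every PBLD array lay above every control array, and the gap between the groups was wider than the range within either. The means were 11.14 ± 0.22 and 12.14 ± 0.16 (SD, n = 3 each), a difference of 1.005 on the log2 scale (SE 0.10, 95% interval 0.80 to 1.21), or 2.01-fold. Of 20046 genes, each represented by its brightest probe, 14 had a larger rise, PBLD among them.

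SLC40A1, the exporter that hepcidin acts on, was lower by about as much. The brighter of its probes, ILMN_2053103, read 10.48, 10.29 and 10.09 on the control arrays and 9.30, 9.13 and 9.18 on the PBLD arrays. The groups did not overlap. The means were 10.28 ± 0.19 and 9.20 ± 0.09 (SD, n = 3 each), a difference of -1.08 (SE 0.09, 95% interval -1.26 to -0.90), or 2.12-fold lower, and 28 genes had a larger fall. The dimmer probe, ILMN_1761833, read 8.45, 8.47 and 8.25 in control cells and 8.20, 8.15 and 8.01 in PBLD cells. It was lower on every PBLD array too, by 0.27 on the log2 scale (a difference of -0.27, SE 0.07), and only 2 of the 3 PBLD arrays were above background there. The probes thus had the same direction and differed in size, and the mean of both gave -0.68.

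CP encodes ceruloplasmin, the copper enzyme of plasma that oxidises iron as it leaves cells through ferroportin. Its probe ILMN_1813206 read 10.14, 9.99 and 9.98 on the control arrays and 9.15, 9.05 and 9.09 on the PBLD arrays. The groups lay far apart against a narrow spread within each. The means were 10.04 ± 0.09 and 9.10 ± 0.05 (SD, n = 3 each), a difference of -0.94 (SE 0.07, 95% interval -1.08 to -0.80), or 1.92-fold lower, with 47 genes showing a larger fall. Ceruloplasmin is a secreted liver protein, and of 11 hepatocyte marker genes measured, all above background, 5 were called lower and 0 higher, against 4.20% called lower of all genes and 7.63% of genes above background. The mean of those 11 markers ran from 14.79 to 14.93 on the control arrays and from 14.63 to 14.76 on the PBLD arrays (log2). Some lay near the highest values of the arrays (15.73 to 16.04), with control means of 15.70 for ALB, 15.61 for APOA2 and 15.60 for AFP. None of these was called. Those called lower were TTR (-0.59, control mean 13.69), AHSG (-0.37, 15.35), SERPINA1 (-0.31, 15.45), APOB (-0.31, 14.75) and APOA1 (-0.30, 15.39). The markers are named with their values known. The part of that upper limit in the marker values, and of the markers in the CP difference, was not tested. In RNA from whole cultures, fewer cells of a kind and less RNA per cell cannot be told apart.

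**Figure D1:**
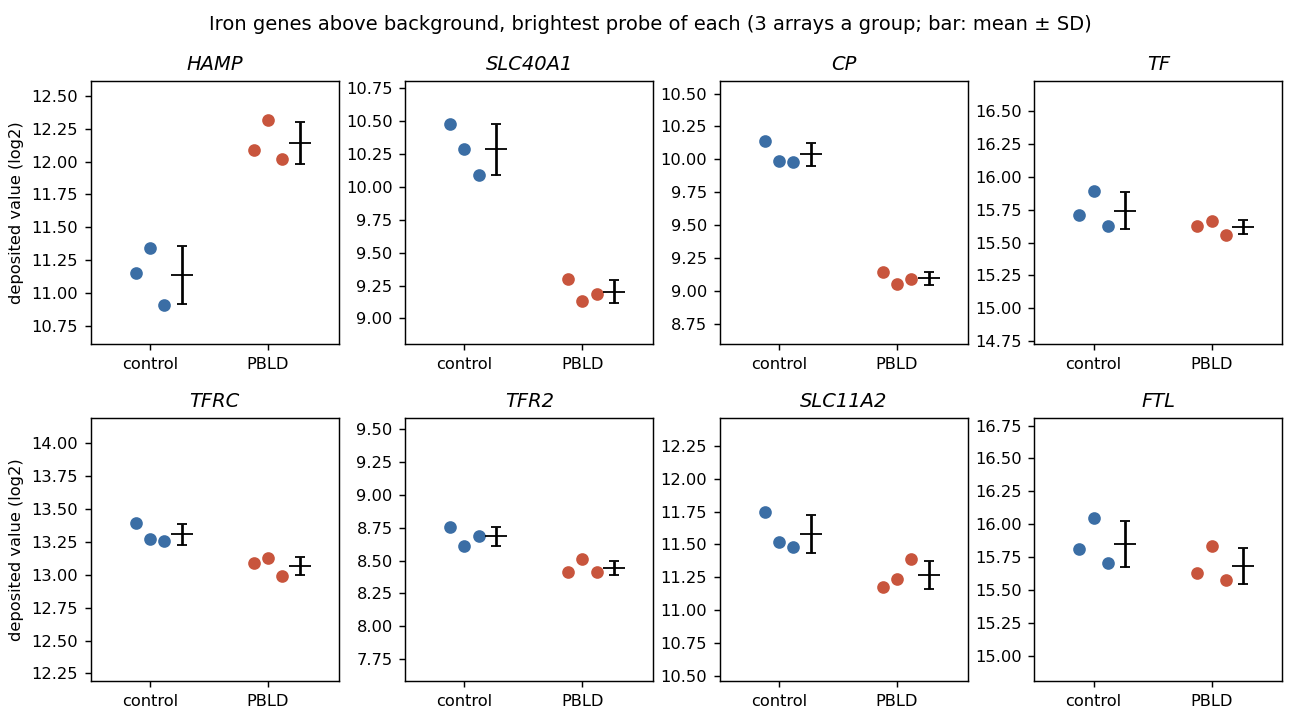
Deposited log2 values (vertical axis, a span of 2 in every panel) of the 8 genes above background, by group, with 1 point per array and the mean ± SD as a bar. HAMP is higher on all 3 PBLD arrays, SLC40A1 and CP are lower by about 1, and the other genes differ by 0.31 or less.

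TF, the plasma carrier, sat near the top of the scale. Its probe ILMN_1768425 read 15.71, 15.90 and 15.62 on the control arrays and 15.62, 15.66 and 15.56 on the PBLD arrays. The ranges overlapped. The difference was -0.13 (SE 0.07, 95% interval -0.28 to 0.03), and the probe lay within 0.28 of the highest value on each array. The part that the upper limit of the scale plays in this small difference was not tested.

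The receptors and the importer were slightly lower. TFRC, the receptor that takes transferrin into most cells, read 13.39, 13.27 and 13.25 in control cells and 13.09, 13.13 and 12.99 in PBLD cells (ILMN_1674243). TFR2, the liver receptor that senses loaded transferrin, read 8.76, 8.61 and 8.69 against 8.41, 8.51 and 8.41 (ILMN_1724738). For both receptors every control array lay above every PBLD array, by a margin smaller than the range of the control arrays. The differences were -0.24 for TFRC (SE 0.07, 95% interval -0.38 to -0.10) and -0.24 for TFR2 (SE 0.06, 95% interval -0.38 to -0.10), which is 1.18-fold for each. TFR2 lay close to the background limit, and after normexp background correction the differences were -0.40 for TFR2 and -0.28 for TFRC. The part of the background in the TFR2 fold was not tested. SLC11A2, the importer DMT1, read 11.75, 11.52 and 11.48 in control cells and 11.18, 11.24 and 11.39 in PBLD cells (ILMN_1745034). The lowest control array lay just above the highest PBLD array, and the difference was -0.31 (SE 0.08, 95% interval -0.48 to -0.15).

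HFE, the MHC class I-like protein that binds transferrin receptor and is mutated in hereditary haemochromatosis, was not well above background. Its 3 probes were above the limit on 1, 0 and 0 of the 6 arrays, with values between 7.77 and 8.08, so no fold is given. The groups overlapped on each of the 3 probes.

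FTL, the light chain of the ferritin shell, is the storage gene that was measured. The probe ILMN_1740429 read 15.81, 16.04 and 15.70 in control cells and 15.63, 15.84 and 15.57 in PBLD cells, and the probe ILMN_1814823 read 15.78, 15.97 and 15.74 against 15.62, 15.84 and 15.49. The groups overlapped on both probes, with replicate 2 the highest in each group. The differences were -0.17 (SE 0.09, 95% interval -0.36 to 0.01) and -0.18 (SE 0.09, 95% interval -0.36 to 0.0001). The first of these probes gave the highest value of all probes on 1 array and lay within 0.17 of the highest on the others. FTL has processed pseudogenes, so what its probes measure beside FTL is uncertain.

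In the fit over all probes, with p-values adjusted over all of them and a threshold of 0.05, 1 of the 9 genes was called higher (HAMP) and 5 lower (SLC40A1, CP, SLC11A2, TFR2 and TFRC). The background was 5.81% of all 20046 genes called higher and 4.20% called lower. Of the 11022 genes above background on at least 3 arrays, which hold 8 of the 9, 10.5% were called higher and 7.63% lower, 18.1% in all. Because this contrast was in view when the genes were chosen, nothing is read from the count. The groups did not overlap for the same 6 genes, against 13.6% of all genes with every PBLD array higher and 9.82% with every PBLD array lower (20.1% and 13.6% of the genes above background). The median difference was -0.24 over the 9 genes and 0.01 over all genes. HAMP, SLC40A1 and CP were called under each of the 16 alternative settings. For SLC40A1 this was on its brighter probe or, where a gene's probes were averaged, on their mean. Every setting reuses the arrays in view when the genes were chosen, so a kept call describes the processing and adds no support. The dimmer SLC40A1 probe lost its call under 7 of 15 settings. TFRC lost its call under 8 of the 16 settings, TFR2 under 7 and SLC11A2 under 6. Leaving out control replicate 1 or PBLD replicate 1 left 3 of the 6 calls, as did normexp background correction and eBayes with an intensity trend.

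**Figure D2:**
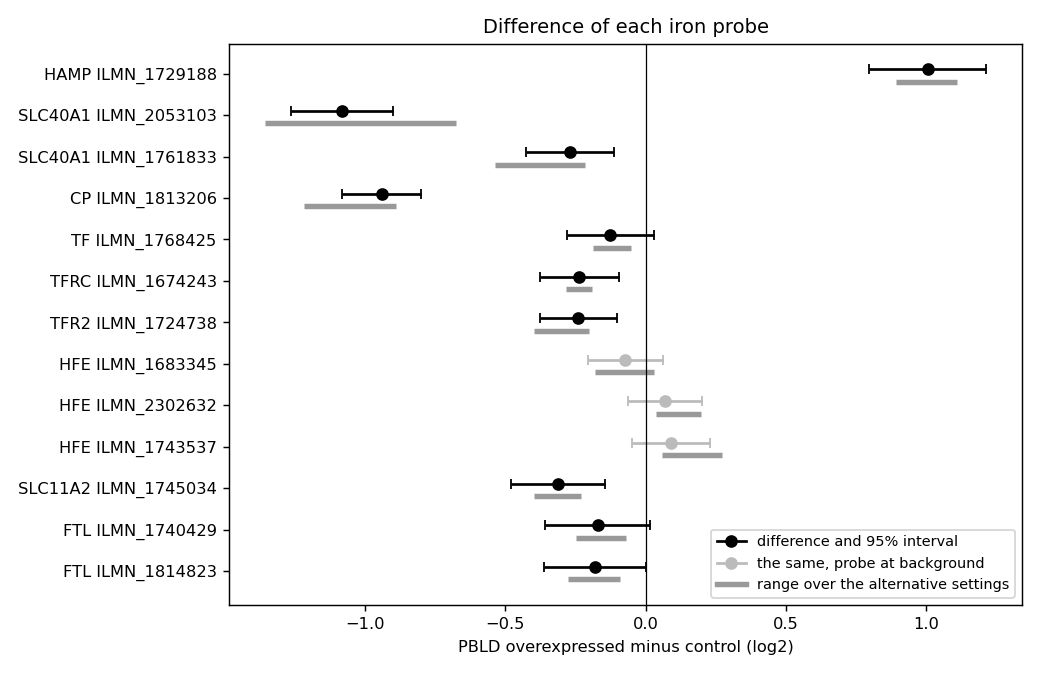
Difference between PBLD overexpressed and control cells (horizontal axis, log2) for each of the 13 probes, with its 95% interval from the fit and, in grey below it, the range over the alternative settings. Only HAMP lies well above 0, the brighter SLC40A1 probe and CP lie near -1, and the 3 HFE probes are at background.

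**Figure D3:**
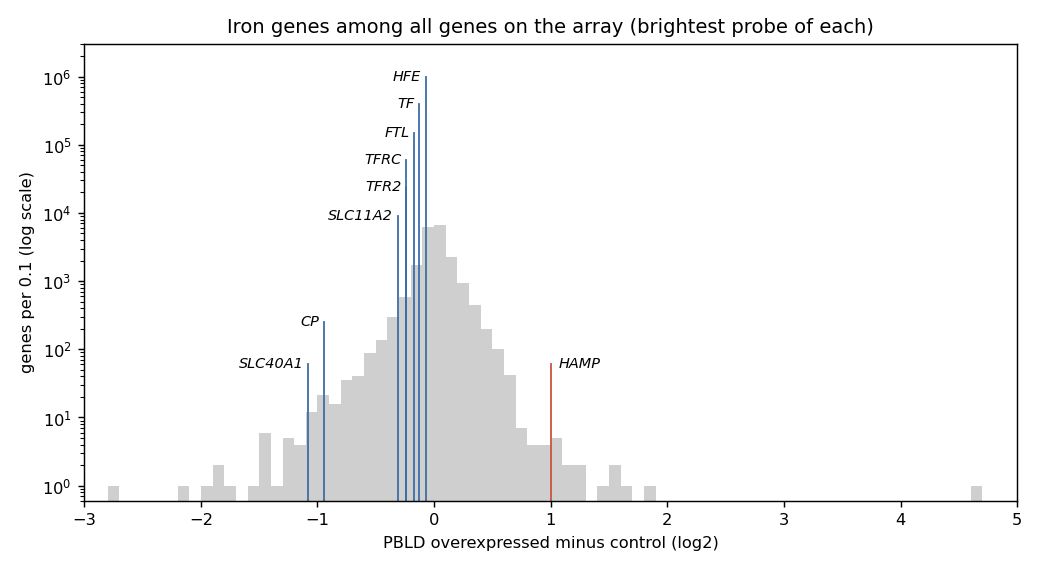
Number of genes (vertical axis, log scale) by difference between PBLD overexpressed and control cells (horizontal axis, log2, in steps of 0.1), with the 9 iron genes marked by lines whose height carries no value. HAMP has 14 genes beyond it on the right, SLC40A1 has 28 and CP has 47 beyond them on the left, and SLC11A2, TFR2 and TFRC lie in the lower tail, with 622, 986 and 994 genes beyond them.

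The genes most like HAMP were sought by the squared distance between log2 values, each centred on its own mean over the 6 arrays, among 11021 genes above background. The 5 nearest were GSTA1 and GSTA2, glutathione transferases of liver (differences of 1.08 and 1.14), HPX, the plasma haem scavenger hemopexin (0.99), and the heat shock genes HSPA1B, an inducible HSP70 (1.03), and HSPH1, its nucleotide exchange factor (0.99). Their squared distances from HAMP ran from 0.0167 for GSTA1 to 0.0556 for HSPH1. GSTA1 and GSTA2 are close relatives, as are HSPA1B and its neighbour HSPA1A, so which family member each probe measures is uncertain. The 6 points of such a likeness are 2 groups of 3, so it mostly restates a difference of the same size.

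Other genes that regulate, move or use iron were then read in 8 lists. Of the 110 measured, 12 rose (called higher) and 5 fell, and their median difference was 0.03. The background was 5.81% and 4.20% of all genes, and 10.5% and 7.63% of genes above background, as 90 of the 110 were, so the counts do not stand apart from it. The split of 12 and 5 became 3 and 3 with normexp, 11 and 8 with cyclic loess and 11 and 7 with quantile normalization. The count was 6 after normexp background correction, and 11 without control replicate 1, control replicate 2 or PBLD replicate 1. Differences for these genes are on the log2 scale, and adjusted p-values are limma's, over all probes.

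Of 23 measured genes of the routes that induce hepcidin, 1 rose, 2 fell and 20 did not pass (median 0.03). CREB3L3, a liver transcription factor of the endoplasmic reticulum membrane known to act on the hepcidin promoter, fell. It read 9.84, 9.73 and 9.75 in control cells and 9.24, 9.23 and 9.11 in PBLD cells, a difference of -0.58 (SE 0.06, adjusted p = 3.22e-05). IL6ST, the shared signalling receptor gp130 of the interleukin-6 family, fell on its brightest probe (-0.38, SE 0.09, adjusted p = 0.0130) and gave 0.09 on its other expressed probe, and its call was lost under 5 of 16 settings. FURIN, a protease that cleaves prohepcidin and hemojuvelin, rose by 0.26 (SE 0.07, adjusted p = 0.0490), and lost its call under 8 of 16 settings. Genes named with values known are ID1, SMAD5, SMAD6, SMAD7, NEO1, TMPRSS6, STAT3, BMP6 and HJV, and none of them passed. SMAD5 gave 0.22 (95% interval 0.08 to 0.36) on its brightest probe, where every PBLD array was higher. NEO1 gave -0.22 (-0.39 to -0.04), with overlap. ID1 gave 0.16 (95% interval 0.02 to 0.31) on its brightest probe, where every PBLD array was higher, and 0.22 (0.02 to 0.42) on another, where the groups overlapped. SMAD7, a feedback inhibitor of SMAD signalling, gave 0.05 (-0.18 to 0.27) and, on its other probe, -0.11 (-0.26 to 0.05), with overlap on both. SMAD6, its relative, gave -0.20 (-0.37 to -0.03), with every PBLD array lower. TMPRSS6, the protease that removes hemojuvelin, gave 0.0009 (-0.18 to 0.18), and STAT3 gave -0.06 (-0.22 to 0.09) on its brightest probe and 0.13 and 0.06 on the others above background. The ligand BMP6 was above background on 0 of the 6 arrays. The co-receptor hemojuvelin (HJV) was narrowly above it on 3, all in the PBLD group, on its brightest probe. That probe read 7.86, 8.04 and 7.98 in control cells and 8.105, 8.18 and 8.18 in PBLD cells. The difference was 0.19 (95% interval 0.05 to 0.33), and the other HJV probes were at background on each array.

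Of 4 genes of iron responsive element binding and its control, 1 rose and 3 did not pass. ACO1, the enzyme that becomes iron regulatory protein when its cluster is lost, gave 0.12 (95% interval -0.02 to 0.27), and FBXL5, the iron-sensing ubiquitin ligase subunit, gave -0.08 (-0.24 to 0.07), both named after their values were seen. SKP1, a subunit of that ligase and of many others, rose by 0.30 (SE 0.09, adjusted p = 0.0446), with a call lost under 9 of 16 settings, and its other expressed probe gave 0.35.

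Of 15 uptake and reduction genes, 3 rose, 0 fell and 12 did not pass, and 8 were above background. Those that rose were MCOLN1, a lysosomal cation channel that passes iron (0.37, SE 0.06, adjusted p = 0.00155), STEAP3, the ferrireductase of the transferrin endosome (0.35, SE 0.06, adjusted p = 0.00245), and SNX3, which recycles the transferrin receptor (0.22, SE 0.06, adjusted p = 0.0447). STEAP3 read 9.40, 9.31 and 9.43 in control cells and 9.78, 9.68 and 9.73 in PBLD cells, without overlap. Its call was lost under 2 of 16 settings, normexp and the mean of its probes. SNX3 lost its call under 12 of 16 settings. SLC39A14, the importer of iron not bound to transferrin, gave -0.04 (95% interval -0.16 to 0.09; named with its value known).

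Of 6 genes of copper supply, which ceruloplasmin needs for its activity, 0 rose, 1 fell and 5 did not pass. CCS, the copper chaperone of superoxide dismutase, fell by 0.32 (a difference of -0.32, SE 0.07, adjusted p = 0.0119), and its call was lost under 5 of 16 settings, among them leaving out control replicate 1, control replicate 2 or PBLD replicate 1. ATP7B, the pump that loads copper onto ceruloplasmin, gave 0.05 (95% interval -0.09 to 0.19) (named with its value known). Of 9 genes of cytosolic iron chaperones and ferritin turnover, 1 rose, 0 fell and 8 did not pass, on the brightest probe of each. BOLA2, named with its value known, gave 0.26 there and did not pass. A dimmer BOLA2 probe was called higher (0.29, adjusted p = 0.0103), and the remaining BOLA2 probes did not pass. GLRX3, a glutaredoxin that carries iron-sulfur clusters, rose by 0.39 (SE 0.09, adjusted p = 0.0183) on its brightest probe and gave 0.22 on another, which did not pass. Its call was lost under 5 of 16 settings, among them without control replicate 3 or PBLD replicate 2. The mean of its probes gave 0.20, which includes a further probe at background on each array (0.01). NCOA4, the receptor that sends ferritin to the lysosome, gave -0.09 (-0.23 to 0.04), named after its value was seen.

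Of 25 genes of mitochondrial iron and iron-sulfur clusters, 4 rose, 0 fell and 21 did not pass (median 0.08). HSPA9, the mitochondrial HSP70 that works with the cluster scaffold, read 12.51, 12.40 and 12.40 in control cells and 13.10, 13.14 and 13.13 in PBLD cells. Its difference was 0.69 (SE 0.06, adjusted p = 3.62e-06). BOLA3, a late cluster assembly factor, rose by 0.37 (SE 0.07, adjusted p = 0.00425) and CIAPIN1, of the cytosolic cluster pathway, by 0.24 (SE 0.06, adjusted p = 0.0321), the latter with a call lost under 11 of 16 settings. Another BOLA3 probe gave 0.27 and did not pass, and the BOLA3 call was lost under 1 of 16 settings, normexp. The mitochondrial ferredoxin FDX2 was the fourth (0.30, adjusted p = 0.0338; named with its value known). These counts rest on the brightest probe of each gene. MMS19, named with its value known, gave -0.16 there and did not pass. A dimmer MMS19 probe was called lower (-0.28, adjusted p = 0.0255), and every PBLD array was lower on both.

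Of 12 genes of haem scavenging, export and breakdown, 1 rose, 1 fell and 10 did not pass. HPX rose from 8.73, 8.76 and 8.50 to 9.61, 9.81 and 9.55, a difference of 0.99 (SE 0.08, adjusted p = 1.36e-06). HMOX1, the inducible haem oxygenase that frees iron from haem, fell from 10.48, 10.29 and 10.19 to 9.63, 9.90 and 9.62, a difference of -0.61 (SE 0.09, adjusted p = 0.000315). The haemoglobin carrier haptoglobin (HP), named after its value was seen, gave 0.08 (95% interval -0.11 to 0.27).

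Of 16 oxygen, redox and liver factors that act on iron genes, 1 rose, 1 fell and 14 did not pass. HIF1A, the oxygen-regulated subunit of a factor that binds hypoxia response elements, fell on each of its 3 probes. The brightest read 9.68, 10.09 and 10.21 in control cells and 9.10, 8.87 and 9.05 in PBLD cells, a difference of -0.99 (SE 0.11, adjusted p = 2.47e-05), and the others gave -0.86 and -0.47. EPAS1, the related HIF-2 alpha subunit, gave 0.02 (95% interval -0.12 to 0.17; named with its value known). EGLN2, an oxygen-sensing hydroxylase that marks these subunits for destruction, rose by 0.31 (SE 0.07, adjusted p = 0.00755) on its brightest probe and gave 0.10 on another, which did not pass. The EGLN2 call was lost under 2 of 16 settings, normexp and the mean of its probes.

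**Figure D4:**
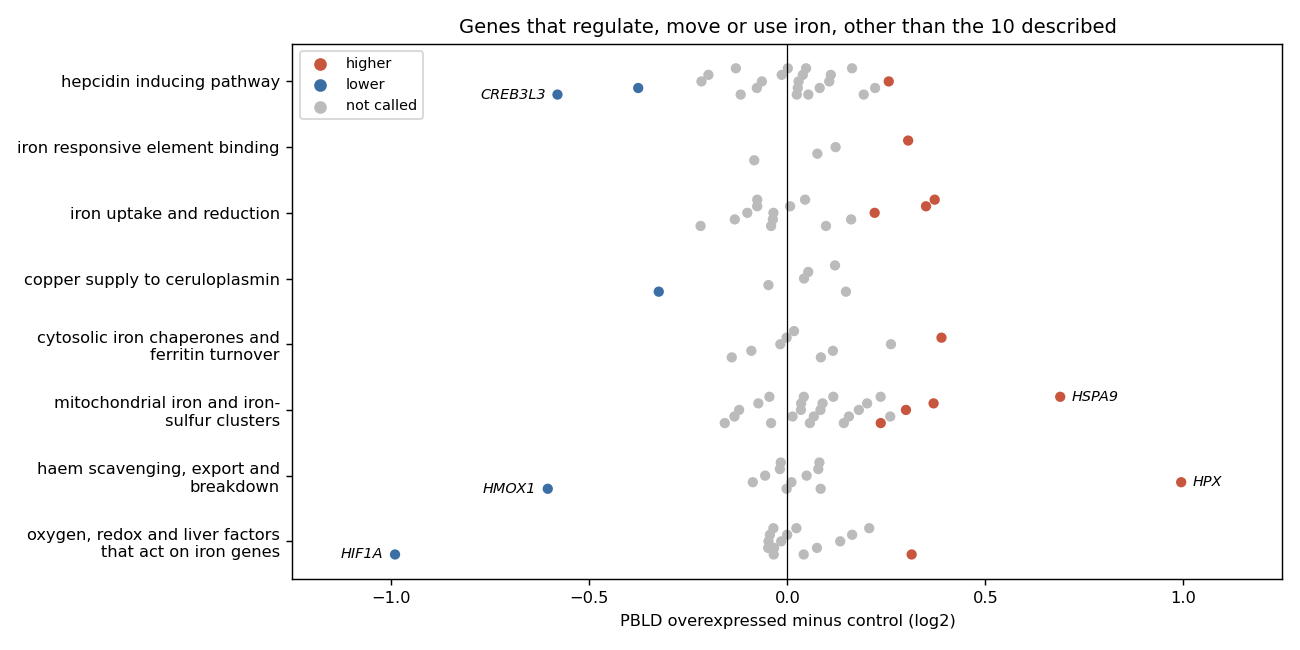
Difference between PBLD overexpressed and control cells (horizontal axis, log2) of the brightest probe of each gene in the 8 wider iron lists (rows, with points spread vertically for visibility), coloured by call. Most points lie close to 0, and HPX (0.99), HSPA9 (0.69), CREB3L3 (-0.58), HMOX1 (-0.61) and HIF1A (-0.99) lie beyond 0.5.

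Markers of other cells that handle iron were read beside these genes, and those named are named with their values known. Of 8 erythroid markers, 2 were above background and 0 were called. Of 8 macrophage and leukocyte markers, 3 were above background (CD14, CD68 and LYZ) and LYZ, the gene of lysozyme, was called lower. LYZ was bright in both groups, at 14.50 ± 0.12 and 14.18 ± 0.12 (log2, SD, n = 3 each), while the leukocyte marker PTPRC was at background on each array. Of 6 endothelial and 6 fibroblast markers, 1 of each list was above background and 0 were called.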

How the data were processed

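Total RNA from HepG2 cells, 3 control and 3 PBLD overexpressed samples grouped by their titles was purified on columns, amplified and labelled, per the labels' protocols, and measured on Illumina bead arrays. The authors deposited a table of log2 values for 47323 probes. BeadStudio is named in the submitters' processing notes, with no version or role, and the scaling, background treatment and genome build are not given in the sources used here. The 12 per-sample columns of another deposited table match no sample's labels and were left out.

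Every probe was tested with limma 3.58.1 in R 4.3.3 (lmFit and eBayes, two-sided, PBLD overexpressed minus control, Benjamini-Hochberg over all probes, threshold 0.05), with no filter. A gene was represented by its brightest probe. Of the probes, 30113 carry 1 symbol, 8 several and 17202 none. Matching by Entrez identifier to RefSeq (GRCh38.p14) changed 0 symbols. Promoter sequences are RefSeq's.

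The genes, the lists and the tests were chosen with earlier results of these data known. Genes named outside the 10 are PBLD, up to 3 rises and 3 falls per list with the smallest p, and the 5 nearest to HAMP; others are marked as named with their values known. The 16 alternatives are described in the closing section. The number of arrays limits the precision. The steps were tested on simulated data with 50 changes of each size. They recovered 18% of 1.25-fold, 66% of 1.5-fold and 96% of 2-fold changes, with 4 false calls among 144. A gene that did not pass may therefore still differ by a small fold. The simulation drew independent normal noise for each probe and array, without error shared within an array. It changed far fewer probes than were called here, so its rates need not hold for these data. Python 3.11.15 with matplotlib 3.10.9 made the figures.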

Additional observations from a re-analysis of the deposited data

How the results depend on the processing

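The alternatives were quantile normalization, cyclic loess, 75th percentile scaling, normexp (offset 50) followed by quantile normalization, array quality weights, eBayes with an intensity trend and robust, the replicate number as a block, leaving out dim probes, a threshold of 0.01, the mean of a gene's probes and leaving out each array. The 6 called iron genes became 3 with normexp, 3 with an intensity trend and robust eBayes, 3 at the threshold of 0.01, and 3 to 5 when an array was left out. The 17 called genes of the wider lists became 6 with normexp, 9 at 0.01, and 11 to 19 when an array was left out. Over all genes, 2006 calls became 647 with normexp, 1171 at 0.01, and 1404 to 1950 when an array was left out. The split of 1164 higher and 842 lower became 244 and 403 with normexp, 1290 and 1332 with quantile normalization, 1177 and 1475 with cyclic loess. It was 884 and 520 without control replicate 1, 741 and 989 without control replicate 3, and 775 and 930 without PBLD replicate 2. The median difference of all genes lay between 0.0006 and 0.0234 in every setting, and no called iron gene changed sign. With the replicate block, 2720 genes, 6 iron genes and 22 of the wider lists were called. Same-numbered samples had deviations that correlated at 0.136, 0.0727 and 0.0303 over 15575 probes, and other pairs at -0.1049 to 0.0388. Each PBLD array correlated best with the control array of its number, while control replicate 3 correlated best with PBLD replicate 2 (0.0388). The labels give no pairing, so the main fit left the numbers out, and whether the replicates share an effect is not settled by these values. With the 99th percentile as the background limit, 9765 genes were above it. The difference of PBLD kept its call under each setting. With normexp the differences were -1.36 for SLC40A1 and -1.22 for CP, and signal over background was too low for a fold of HFE.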
